A study of Mus musculus with 24 samples.

Results

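The synaptic vesicle release machinery was described here as a set of 32 genes, chosen by name from 57126 gene IDs in the count files. The set held the SNARE and complexin genes Snap25, Stx1a, Vamp1, Vamp2, Cplx1 and Cplx2, the synaptotagmins Syt1, Syt2, Syt5, Syt7 and Syt11, and the synapsins Syn1, Syn2 and Syn3. It also held the vesicle membrane genes Syp, Syngr1, Syngr3, Sv2a, Sv2b and Sv2c and the small GTPases Rab3a, Rab3b and Rab3c. The active zone was represented by Unc13a, Unc13c, Rims1, Rims2, Bsn and Pclo, and transmitter loading by Slc17a6, Slc17a7 and Slc32a1. All 32 symbols matched a gene ID, and together they took 0.99% to 1.82% of the counts of a library.

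Cerebellum and hippocampus came from the same 12 mice of the strain BALB/cNctr-Npc1m1N/J, 4 in each of 3 groups, and each mouse gave 1 library of each tissue, 24 in all. Niemann-Pick type C1 mice lack working NPC1, a lysosomal membrane protein that moves cholesterol out of the lysosome. The Npc1-/- DIP mice received dipyridamole, a blocker of nucleoside uptake and of phosphodiesterases, at 30 mg/kg by intraperitoneal injection on 5 days a week from postnatal day 28, and were sampled at day 63 (2 males, 2 females). The Npc1-/- vehicle mice received the PBS:PEG400 carrier on that schedule and were also sampled at day 63 (3 males, 1 female), while the Npc1+/+ vehicle mice received the carrier and were sampled at day 65 (4 females). The mutation is carried in the germline and so in every cell type of both Npc1-/- groups, and no Npc1+/+ mouse received the drug. Age and the range of the sequencing barcodes go wholly with genotype, so they cannot be told apart from it.

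Release of transmitter starts when a vesicle docks at the active zone, a protein scaffold built around RIM, Piccolo, Bassoon and Munc13 proteins. Munc13 and complexin prepare the SNARE bundle of Snap25, syntaxin and synaptobrevin, and a synaptotagmin triggers fusion when calcium enters. In cerebellum, granule cell axons excite Purkinje cells with glutamate loaded by Slc17a7 (VGLUT1), climbing fibres use Slc17a6 (VGLUT2), and Purkinje cells and interneurons release GABA, which Slc32a1 (VGAT) loads. In hippocampus the principal neurons use mainly Slc17a7.

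The promoters of 4 members called in cerebellum are shown because Rims1 and Rab3b had the largest fitted differences in each direction, Slc17a7 marks glutamatergic terminals and Unc13a held the rarest letter matches. They come from RefSeq on GRCm38.p6, which gave 33 promoters for 25 of the 32 members, each spanning 250 bases before to 50 after the start of transcription. The deposited counts use GRCm39, so positions of promoters and of genes are not on a common scale. Capitals mark GC boxes (GGGCGG), Egr1 motifs (GCGNGGGCG), CREs (TGACGTCA) and the left arm (TTCAGCACC) and right arm of RE1, the element bound by the repressor REST, on either strand, and overlapping matches run together.
Rims1 promoter, chr1:22806109-22806408, minus strand: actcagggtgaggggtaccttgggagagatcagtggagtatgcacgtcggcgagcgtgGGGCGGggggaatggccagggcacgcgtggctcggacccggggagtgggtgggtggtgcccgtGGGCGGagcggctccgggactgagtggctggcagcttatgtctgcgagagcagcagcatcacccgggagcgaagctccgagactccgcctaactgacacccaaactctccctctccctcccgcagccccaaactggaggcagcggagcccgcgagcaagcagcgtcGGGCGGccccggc
Unc13a promoter, chr8:71671708-71672007, minus strand: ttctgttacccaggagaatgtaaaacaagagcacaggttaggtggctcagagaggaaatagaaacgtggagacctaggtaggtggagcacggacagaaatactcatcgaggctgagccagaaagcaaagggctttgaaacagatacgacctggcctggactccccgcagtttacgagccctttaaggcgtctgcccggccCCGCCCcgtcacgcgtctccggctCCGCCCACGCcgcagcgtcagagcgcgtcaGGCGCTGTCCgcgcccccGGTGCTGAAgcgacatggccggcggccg
Slc17a7 promoter, chr7:45163671-45163970, plus strand: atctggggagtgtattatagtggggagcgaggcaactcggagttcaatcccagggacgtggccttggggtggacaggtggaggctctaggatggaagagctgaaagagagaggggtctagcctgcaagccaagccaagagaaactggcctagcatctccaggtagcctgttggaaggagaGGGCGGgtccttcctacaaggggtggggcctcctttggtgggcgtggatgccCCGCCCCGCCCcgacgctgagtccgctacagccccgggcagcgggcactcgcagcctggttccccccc
Rab3b promoter, chr4:108878820-108879119, plus strand: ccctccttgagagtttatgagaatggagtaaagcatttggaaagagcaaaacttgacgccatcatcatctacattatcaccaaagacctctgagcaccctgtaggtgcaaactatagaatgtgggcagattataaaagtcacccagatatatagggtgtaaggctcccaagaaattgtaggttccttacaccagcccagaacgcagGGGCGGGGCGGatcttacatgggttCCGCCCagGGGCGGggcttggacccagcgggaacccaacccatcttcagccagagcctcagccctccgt

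Among the sequences shown, the Unc13a promoter alone held RE1 letters, and it held both arms. The left arm stood in 2 of 33 member promoters (6.06%), those of Unc13a and Syn1, against 0.371% of 32851 promoters in RefSeq, and the right arm in 1 (3.03%) against 0.137%. A GC box stood in 22 member promoters (66.7%) against 35.7% of all, an Egr1 motif in 4 (12.1%) against 5.55%, and a CRE in 1, that of Syn1 (3.03%), against 1.79%. Median GC content was 60% over the member promoters and 52.7% over all. The Rims1, Unc13a and Slc17a7 promoters, at 69.3%, 61.3% and 63.7% GC, lay above the member median, and the Rab3b promoter, at 51.7%, lay below it. These are letter matches, and no binding was measured.

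A library held between 1833609 and 11590081 counts (median 7979867), and the shallowest in each tissue came from replicate 2 of the Npc1-/- vehicle group, with 1833609 counts in cerebellum and 3844971 counts in hippocampus. Levels are in CPM, the counts of a gene relative to the library total after edgeR's TMM scaling. Npc1, the mutated gene, averaged 21.1 ± 6.95 CPM in Npc1-/- DIP and 30.3 ± 7.68 CPM in Npc1-/- vehicle cerebellum, against 107 ± 4.94 CPM in Npc1+/+ vehicle cerebellum (SD, n = 4 each), and its hippocampal means were 17.7, 19.0 and 75.0 CPM in the same order of groups. Granule cell markers summed to 3828 to 5084 CPM in cerebellum and 23.3 to 62.8 CPM in hippocampus, and principal neuron markers to 100.2 to 134 CPM in cerebellum and 425.5 to 1252 CPM in hippocampus, so each tissue carried its own markers. In the Npc1-/- DIP group the hippocampus of replicate 4 held the 425.5 CPM, against 931 to 1252 CPM in the other 3, and the labels give its cerebellar and hippocampal libraries the same barcode. Purkinje cell markers in cerebellum summed to 718 to 912 CPM in Npc1-/- DIP mice and 611 to 1025 CPM in Npc1-/- vehicle mice, against 5810 to 6606 CPM in Npc1+/+ vehicle mice, while activated microglia markers summed to 873 to 997, 795 to 1017 and 49.0 to 59.9 CPM. Pan-neuronal marker sums overlapped between the groups, at 3014 to 4349, 3059 to 4743 and 3556 to 4449 CPM. In the edgeR fit against Npc1+/+ mice their median log2 fold change was -0.46 in vehicle and -0.3 in treated mice. Of 7 tested, 0 and 1 were called lower. Cerebellar interneuron marker sums did not overlap between genotypes, at 1213 to 1297, 1295 to 1400 and 1708 to 1976 CPM. Those 7 genes did not move together. In vehicle mice 1 was called higher and 1 lower, and in treated mice 1 higher and 2 lower. Gad1 of that list averaged 491, 522 and 667 CPM in the same order of groups, and Gad2 252, 260 and 183 CPM. In whole tissue, fewer cells of a type and less RNA per cell cannot be told apart, and the part of these markers in the results below was not tested.

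In the cerebellum of Npc1-/- vehicle mice, Rims1, Unc13a, Cplx2, Slc17a7 and Rab3a were lower than in Npc1+/+ vehicle mice, and Rab3b was higher. With edgeR's quasi-likelihood test at an adjusted p under 0.05, 6 of 30 members tested were called (20%), against 9.95% of 12921 genes. The call was lower for 5 members (16.7%), against 4.04% of all genes, and higher for 1, against 5.91%. The median log2 fold change was -0.21 over the members and 0.01 over all genes. Npc1-/- DIP mice differed from Npc1+/+ vehicle mice in 7 of 30 members, 1 higher and 6 lower, against 14.4% of all genes in either direction, 8.13% higher and 6.29% lower, with a median of -0.24 over the members and -0.01 over all genes. Both comparisons use the same Npc1+/+ libraries. Since the Npc1+/+ mice were all female, folds were fitted with a sex term estimated from the Npc1-/- mice, and they can depart from the ratio of the printed means.

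Of 6 active zone genes, 4 were called lower in Npc1-/- DIP cerebellum and 2 in Npc1-/- vehicle cerebellum, each against Npc1+/+ vehicle, and none was called higher. Over all genes 6.29% and 4.04% were called lower, and 8.13% and 5.91% higher. Of 17 other active zone genes, 1 was lower and 1 higher in treated mice, with a median of -0.09 log2. In vehicle mice 2 of those 17 were lower and 0 higher, with a median of -0.03. Rims1, the scaffold that links Rab3 on the vesicle to calcium channels and Munc13, had 83.3, 63.0, 55.2 and 42.1 CPM in Npc1-/- DIP, 41.5, 95.9, 41.3 and 49.9 CPM in Npc1-/- vehicle and 74.3, 92.1, 111 and 110.2 CPM in Npc1+/+ vehicle cerebellum. Replicate 2 of the Npc1-/- vehicle group lay inside the Npc1+/+ range, and so did replicate 1 of the Npc1-/- DIP group, so the groups overlapped. The log2 fold change was -1.25 ± 0.28 in vehicle mice (SE, 2.37-fold lower, adjusted p = 0.00759 by edgeR's quasi-likelihood test) and -0.98 ± 0.25 in treated mice (adjusted p = 0.0122), both against Npc1+/+ vehicle. Without the sex term these became -0.81 (adjusted p = 0.0318) and -0.67, which missed the threshold (adjusted p = 0.0598).

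Unc13a, the Munc13 protein that primes vesicles at most excitatory terminals, showed a tighter difference. Its cerebellar levels were 130.1, 130.1, 121 and 119 CPM in Npc1-/- DIP, 114, 141, 123 and 107 CPM in Npc1-/- vehicle and 166, 207, 173 and 201 CPM in Npc1+/+ vehicle mice. All 8 Npc1-/- libraries lay below all 4 Npc1+/+ libraries. The log2 fold change was -0.66 ± 0.16 in vehicle mice (adjusted p = 0.0147 by edgeR's quasi-likelihood test) and -0.60 ± 0.15 in treated mice (adjusted p = 0.0102). The exons of Unc13a share 495 bases, 3.9% of their length, with Colgalt1 on the other strand, and the counts ignored strand.

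Unc13c is the Munc13 form concentrated in cerebellar granule cells. It stood at 130.4, 104, 115 and 109 CPM in Npc1-/- DIP, 101, 125, 143 and 106 CPM in Npc1-/- vehicle and 171, 189, 155 and 184 CPM in Npc1+/+ vehicle cerebellum. All Npc1-/- libraries lay below all Npc1+/+ libraries, and the Npc1-/- groups overlapped each other. Only the treated mice passed the test, at -0.54 ± 0.16 log2 (adjusted p = 0.0268 by edgeR's quasi-likelihood test), while the vehicle mice stood at -0.47 ± 0.17 (adjusted p = 0.0975).

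Pclo encodes Piccolo, a giant scaffold of the active zone. Its levels were 82.0, 120.3, 106 and 127 CPM in Npc1-/- DIP, 155, 61.9, 125 and 101 CPM in Npc1-/- vehicle and 284, 206, 217 and 152 CPM in Npc1+/+ vehicle cerebellum. The treated libraries all lay below the Npc1+/+ libraries, and the highest vehicle library just crossed the lowest Npc1+/+ library. The treated mice passed at -0.88 ± 0.26 log2 (adjusted p = 0.0308 by edgeR's quasi-likelihood test), and the vehicle mice stood at -0.78 ± 0.29 (adjusted p = 0.106). Bsn, which encodes the related scaffold Bassoon, and Rims2, the second large RIM gene, were near 0 in both comparisons, from -0.14 to -0.05 log2 with SEs of 0.16 to 0.20.

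The Rab3 GTPases, which sit on vesicles and bind RIM, did not move as a group. Rab3b had 40.2, 35.1, 34.7 and 36.7 CPM in Npc1-/- DIP, 33.7, 39.9, 39.7 and 47.5 CPM in Npc1-/- vehicle and 22.3, 23.8, 11.8 and 20.7 CPM in Npc1+/+ vehicle cerebellum. Every Npc1-/- library lay above every Npc1+/+ library. Its log2 fold change was 0.99 ± 0.24 in vehicle mice (1.98-fold higher, adjusted p = 0.0117 by edgeR's quasi-likelihood test) and 0.87 ± 0.21 in treated mice (adjusted p = 0.01). Brainstem markers moved with it in cerebellum, summing to 41.7 to 66.8 CPM in Npc1-/- DIP, 45.1 to 79.7 CPM in Npc1-/- vehicle mice, and 12.0 to 24.5 CPM in Npc1+/+ vehicle mice, with Hoxa5 and Hoxb5 at 0 in all 3 groups, and their part in the result was not tested.

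Rab3a, the most studied of the family, had 189, 167, 128 and 124 CPM in Npc1-/- DIP, 121, 149, 113 and 137 CPM in Npc1-/- vehicle and 143, 154, 135 and 205 CPM in Npc1+/+ vehicle cerebellum. The 3 groups overlapped. It was called lower in vehicle mice at -0.60 ± 0.18 log2 (adjusted p = 0.045 by edgeR's quasi-likelihood test), a value that rests on the sex term, since without it the fold was -0.30 (adjusted p = 0.232), and the treated mice stood at -0.28 ± 0.16 (adjusted p = 0.262). For Rab3c the levels were 308, 302, 323 and 319 CPM in Npc1-/- DIP, 279, 282, 338 and 298 CPM in Npc1-/- vehicle and 405, 456, 434 and 442 CPM in Npc1+/+ vehicle cerebellum. No Npc1-/- library reached the lowest Npc1+/+ library. Treated mice passed at -0.40 ± 0.13 (adjusted p = 0.0392), and vehicle mice stood at -0.43 ± 0.14 (adjusted p = 0.0595).

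**Figure D1:**
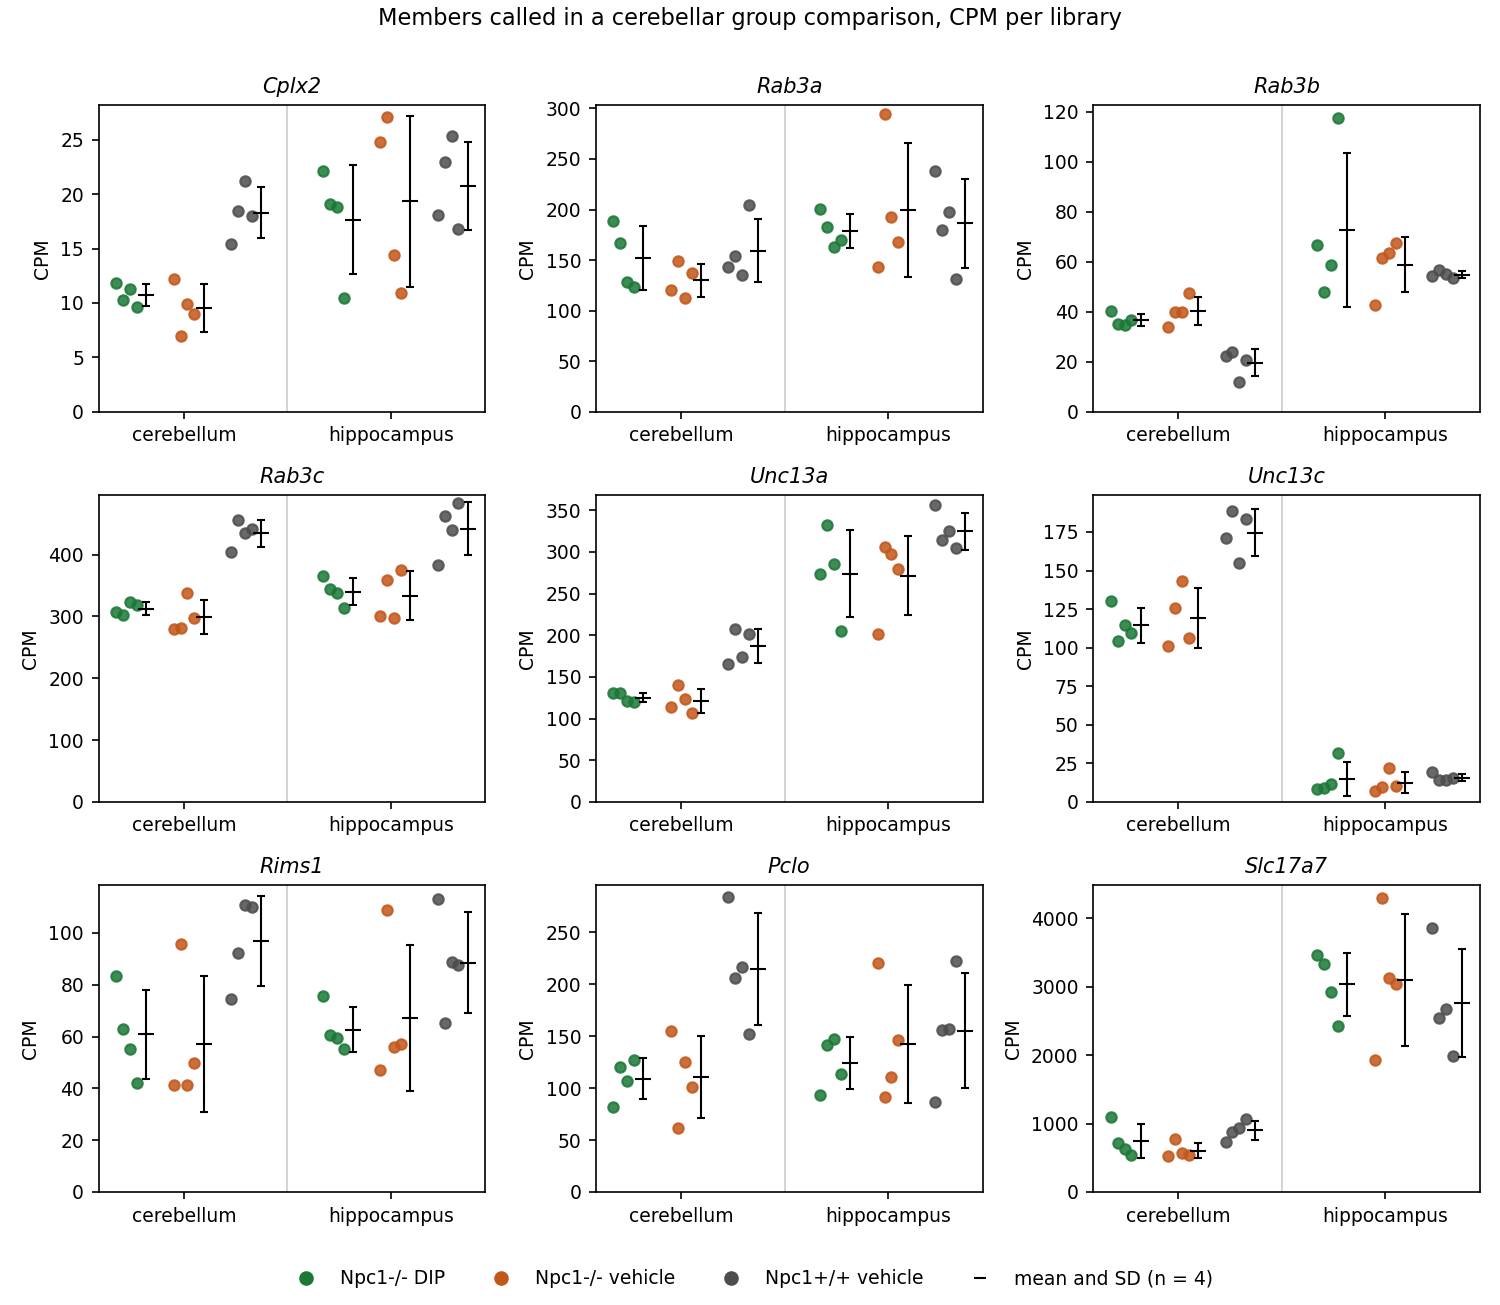
CPM of the 9 members called in a cerebellar group comparison, by tissue and group, with 1 point for each library and a bar for the mean and SD of 4 libraries, on linear axes that start at 0. In cerebellum the Npc1-/- points of Unc13a, Unc13c, Rab3c and Cplx2 lie below all Npc1+/+ points and those of Rab3b above, while Rims1, Rab3a and Slc17a7 overlap.

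Of the SNARE and complexin genes, 5 were tested in cerebellum and Cplx2 alone was called. Complexins clamp and then speed SNARE-driven fusion. Cplx2 had 11.8, 10.3, 11.3 and 9.60 CPM in Npc1-/- DIP, 12.2, 7.00, 9.87 and 9.02 CPM in Npc1-/- vehicle and 15.5, 18.4, 21.2 and 18.03 CPM in Npc1+/+ vehicle cerebellum. No Npc1-/- library reached the lowest Npc1+/+ library, and the log2 fold change was -0.92 ± 0.24 in vehicle mice (adjusted p = 0.0201 by edgeR's quasi-likelihood test) and -0.79 ± 0.21 in treated mice (adjusted p = 0.0172). Cplx1, the other complexin of the set, averaged 722 ± 85.1, 809 ± 122 and 733 ± 59.4 CPM in the Npc1-/- DIP, Npc1-/- vehicle and Npc1+/+ vehicle groups (SD, n = 4 each) and stood at 0.13 ± 0.18 log2 in vehicle mice (adjusted p = 0.709). Snap25, the SNARE of the target membrane, was at -0.46 ± 0.17 (adjusted p = 0.112), and the vesicle SNAREs Vamp1 and Vamp2 at 0.42 ± 0.30 and -0.08 ± 0.16 log2 in vehicle mice.

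Among the vesicular transporters, Slc17a7 and Slc17a6 were tested. Slc17a7 had 1101, 711, 624 and 541 CPM in Npc1-/- DIP, 529.6, 770.1, 571 and 538 CPM in Npc1-/- vehicle and 735, 871, 931 and 1074 CPM in Npc1+/+ vehicle cerebellum. Replicate 1 of the treated mice lay above every Npc1+/+ library, and replicate 2 of the vehicle mice lay just inside the Npc1+/+ range. It was called lower in vehicle mice at -0.88 ± 0.22 log2 (adjusted p = 0.0171 by edgeR's quasi-likelihood test), and treated mice stood at -0.51 ± 0.20 (adjusted p = 0.105). Granule cell markers, whose cells make most VGLUT1 in cerebellum, summed to 3892 to 4618 CPM in Npc1-/- DIP, 3828 to 4520 CPM in Npc1-/- vehicle mice, and 3872 to 5084 CPM in Npc1+/+ vehicle mice, and the groups overlapped. Of 6 granule cell markers tested, Gabra6, a GABA receptor subunit, was called lower in vehicle mice (-0.89 ± 0.22, adjusted p = 0.0152) and in treated mice (-0.88 ± 0.20, adjusted p = 0.00649), and Zic1, a transcription factor of these cells, was called higher in treated mice (0.63 ± 0.18, adjusted p = 0.0228). The part of granule cells in the result was not tested. Slc17a6 averaged 94.1 ± 14.8, 85.01 ± 15.2 and 78.1 ± 10.51 CPM in the same order of groups and was not called, at 0.34 ± 0.19 log2 in vehicle mice (adjusted p = 0.279).

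None of 5 synaptotagmins, 3 synapsins or 6 vesicle membrane genes passed in cerebellum. Syt7, a slow calcium sensor, averaged 94.3 ± 23.5, 88.6 ± 34.2 and 176 ± 36.6 CPM in Npc1-/- DIP, Npc1-/- vehicle and Npc1+/+ vehicle mice (SD, n = 4 each). Its Npc1-/- libraries all lay below its Npc1+/+ libraries, yet it missed the threshold at -0.68 ± 0.28 log2 in vehicle mice (adjusted p = 0.147) and -0.70 ± 0.26 in treated mice (adjusted p = 0.0786). Syp, which encodes the vesicle membrane protein synaptophysin, ran from 1199 to 2627 CPM in Npc1-/- DIP, 1294 to 3043 CPM in Npc1-/- vehicle mice, and 1179 to 1797 CPM in Npc1+/+ vehicle mice. Its group ranges overlapped, and so did those of Sv2a, Sv2b and Sv2c, the SV2 glycoproteins, whose log2 fold changes in vehicle mice ran from -0.20 to 0.02. Syn3, a minor synapsin, had all Npc1-/- libraries above its Npc1+/+ libraries without passing (0.24 ± 0.22, adjusted p = 0.557). It shares 1733 exonic bases, 14.1% of its length, with Timp3 on the other strand, and Timp3 averaged 169 ± 37.8, 155 ± 37.8 and 72.0 ± 12.8 CPM in the same order of groups, so the unstranded count of Syn3 is uncertain.

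Counting only separation, 2 of 30 members had Npc1-/- vehicle libraries all above and 5 all below the Npc1+/+ vehicle libraries in cerebellum, against 11.0% and 9.59% of all genes. For Npc1-/- DIP mice the counts were 2 above and 7 below, against 13.4% and 12.5% of all genes.

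These cerebellar calls depended on single libraries and on the model. Without replicate 3 of the Npc1-/- vehicle group, its only female, a single member (Slc17a7) stayed called by edgeR's quasi-likelihood test, and a fit limited to these 2 groups called none. For treated mice the count was 0 without replicate 4 and 2 without replicate 3 of the Npc1-/- DIP group. It was 4 without replicate 3 of the Npc1+/+ group. Calls over all genes also moved when 1 library was left out. They ran from 474 to 1866 for vehicle mice and from 858 to 1803 for treated mice. The dependence of a library's expression on GC content was taken as a slope. GC content was that of a gene's longest annotated transcript, not of the short amplicon read. The slope ran from -0.052 to 0.117 log2 per 10 points in Npc1-/- DIP and -0.022 to 0.132 in Npc1-/- vehicle cerebellum. In Npc1+/+ vehicle cerebellum it ran from -0.114 to -0.048. With the slope as a covariate 13 members were called in vehicle mice, 12 of them lower. In treated mice 11 were called, 9 of them lower. Over all genes that covariate gave 2314 calls in vehicle mice, 1124 of them lower, against 1286 and 522 without it, and 2262 in treated mice, 1091 of them lower, against 1864 and 813 without it. Pclo was not among them, at -0.23 in treated mice (adjusted p = 0.509), and neither was Cplx2 in treated mice, at -0.65 (adjusted p = 0.118).

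Dipyridamole itself was tested as Npc1-/- DIP against Npc1-/- vehicle mice. In cerebellum 0 of 30 members were called, against 0% of 12921 genes, and at an unadjusted p under 0.05 there were 1 member and 300 genes by edgeR, while DESeq2 also called 0. The member was Rab3a, at 0.31 ± 0.15 log2 (adjusted p = 1 by edgeR's quasi-likelihood test). Rims1 stood at 0.27 ± 0.22, Slc17a7 at 0.37 ± 0.18, Unc13a at 0.06 ± 0.13, Cplx2 at 0.13 ± 0.20 and Rab3b at -0.12 ± 0.19 log2. No member separated the treated from the vehicle libraries in either tissue, against 0.635% of genes above and 0.573% below in cerebellum and 0.636% above and 0.557% below in hippocampus. In hippocampus 0 of 31 members were called, against 0% of 12740 genes, with 0 members and 93 genes at an unadjusted p under 0.05 and 0 by DESeq2. With SEs of 0.11 to 0.66 log2 in cerebellum and 0.11 to 0.48 in hippocampus, small effects could not be told from none. In simulated counts for this comparison, edgeR called 67.2% of genes changed 2-fold in cerebellum and 53.7% in hippocampus.

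**Figure D2:**
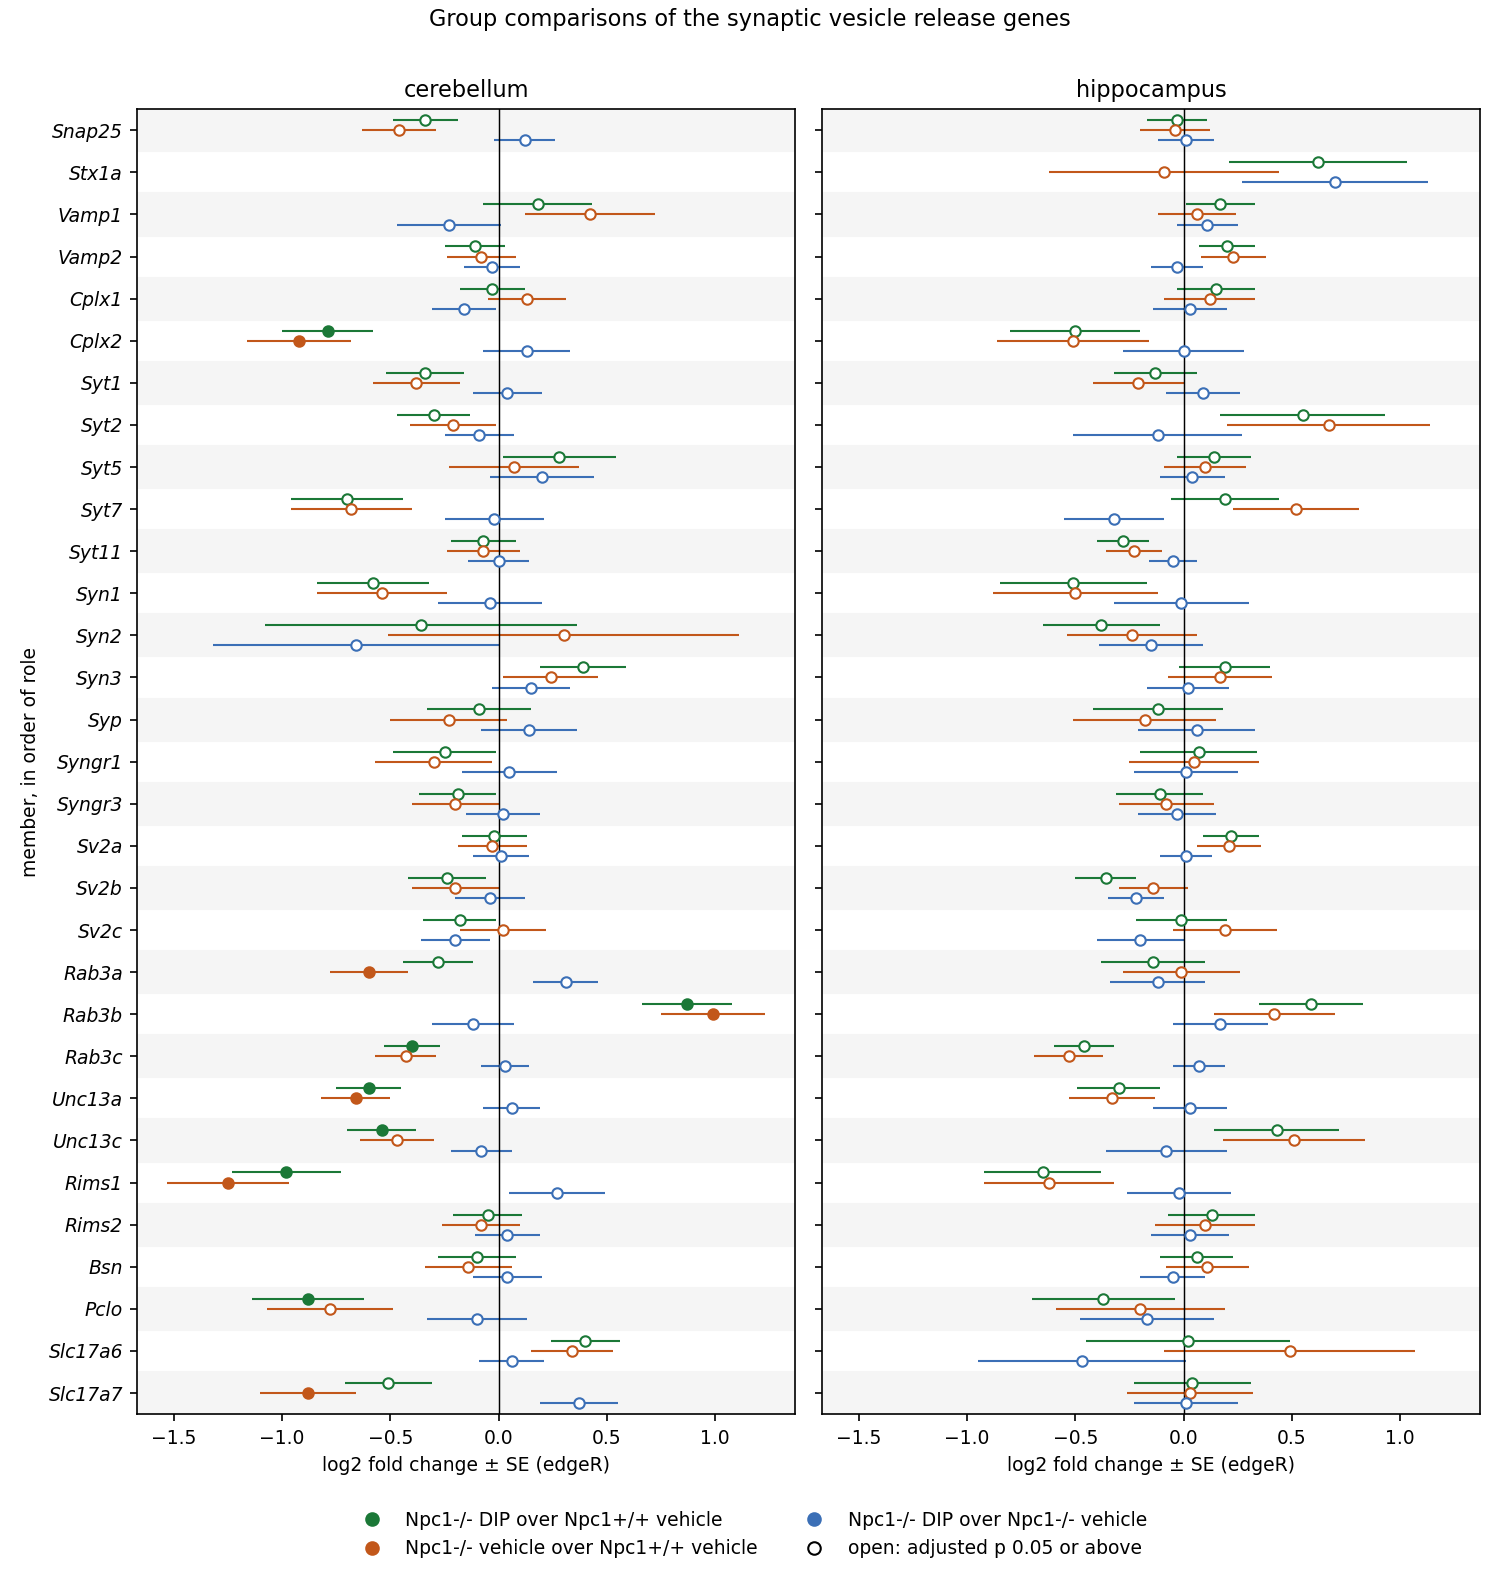
Log2 fold change with SE from edgeR for each member tested, ordered by role from top to bottom, in cerebellum (left) and hippocampus (right). Filled points passed the adjusted p of 0.05. Filled points appear in cerebellum for Npc1-/- against Npc1+/+ mice, 7 for Npc1-/- DIP and 6 for Npc1-/- vehicle, and none appears in hippocampus or for dipyridamole against vehicle.

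In hippocampus the same genes gave no call. Of 31 members tested, 0 passed in Npc1-/- vehicle against Npc1+/+ vehicle mice, against 1.62% of 12740 genes in either direction and 1.02% higher, and 0 in Npc1-/- DIP against Npc1+/+ vehicle mice, against 2.68% in either direction and 1.59% higher. At an unadjusted p under 0.05 there were 1 of 31 members for vehicle mice, against 1569 of 12740 genes (12.3%), and 5 for treated mice, against 2103 genes (16.5%). With SEs of 0.13 to 0.58 log2 for vehicle mice and 0.12 to 0.47 for treated mice, small effects could not be told from none. Larger ones could be missed too. In simulated counts for the vehicle comparison, edgeR called 25.4% of genes changed 2-fold and 81.8% of those changed 4-fold. DESeq2 called 1 member lower in each comparison, Rab3c. Rab3c had 365, 345, 337 and 313 CPM in Npc1-/- DIP, 301, 359, 297 and 375 CPM in Npc1-/- vehicle and 383, 462, 439 and 484 CPM in Npc1+/+ vehicle hippocampus. No Npc1-/- library reached the Npc1+/+ range. The log2 fold changes were -0.53 ± 0.16 in vehicle mice (adjusted p = 0.136 by edgeR's quasi-likelihood test) and -0.46 ± 0.14 in treated mice (adjusted p = 0.0984).

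Apart from Rab3c, the members called in cerebellum overlapped between the groups in hippocampus. Rims1 had 75.5, 60.6, 59.5 and 55.3 CPM in Npc1-/- DIP, 47.0, 109, 56.0 and 57.1 CPM in Npc1-/- vehicle and 113, 65.2, 88.6 and 87.5 CPM in Npc1+/+ vehicle hippocampus, which gave -0.62 ± 0.30 log2 in vehicle mice (adjusted p = 0.428). As in cerebellum, replicate 2 of the vehicle group was high. Unc13a averaged 274 ± 52.4, 271 ± 47.5 and 325 ± 22.1 CPM in the same order of groups (SD, n = 4 each), Cplx2 17.7 ± 5.00, 19.3 ± 7.84 and 20.8 ± 4.04 CPM, and Rab3b 72.6 ± 30.8, 58.8 ± 11.1 and 54.8 ± 1.36 CPM. Their ranges overlapped. Slc17a7 averaged 3036 ± 465, 3100 ± 967 and 2762 ± 787 CPM and stood at 0.03 ± 0.29 log2 in vehicle mice (adjusted p = 0.981). Syt11 and Rab3c, 2 of the 31 members, had Npc1-/- vehicle libraries all below the Npc1+/+ libraries, against 5.54% of all genes, no member lay above, against 6.26%, and for Npc1-/- DIP 3 members lay below (Rab3c, Sv2b and Syt11) and 1 above (Vamp2), against 5.86% and 6.62%. Leaving out replicate 2 of the Npc1-/- vehicle group and replicate 4 of the Npc1-/- DIP group together also gave 0 members in each hippocampal comparison.

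Whether loss of Npc1 acted differently in the 2 tissues was tested over 24 libraries with the mouse as a block. Of 31 members, 0 passed by edgeR's quasi-likelihood test, against 1.15% of 13436 genes in either direction and 0.543% with a higher effect in cerebellum, with 5 members and 1229 genes (9.15%) at an unadjusted p under 0.05 and 1 member called by DESeq2, Syt7. Syt7 had the largest difference between the tissues. In cerebellum it had 65.3, 107, 86.1 and 119 CPM in Npc1-/- DIP, 112, 49.0, 122 and 71.6 CPM in Npc1-/- vehicle and 225, 181, 147 and 149 CPM in Npc1+/+ vehicle mice. In hippocampus it had 143, 228, 199 and 189.7 CPM in Npc1-/- DIP, 324, 165, 229.4 and 229.6 CPM in Npc1-/- vehicle and 111, 171, 177 and 207 CPM in Npc1+/+ vehicle mice. The Npc1-/- libraries lay below all Npc1+/+ libraries in cerebellum and overlapped them in hippocampus, and the difference of the genotype effects, cerebellum minus hippocampus, was -1.25 ± 0.33 log2 (adjusted p = 0.0946). Members called in cerebellum and not in hippocampus, such as Slc17a7 (-0.92 ± 0.33, adjusted p = 0.306) and Rims1 (-0.64 ± 0.28, adjusted p = 0.475), were therefore not shown to differ between the tissues. Nor were they shown to be alike. In simulated counts, edgeR called 16.4% of genes whose genotype effect differed 2-fold between the tissues. The dipyridamole effect differed between tissues in 0 of 31 members, against 0% of genes, with 0 members at an unadjusted p under 0.05 and 222 genes, and 0 by DESeq2.

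**Figure D3:**
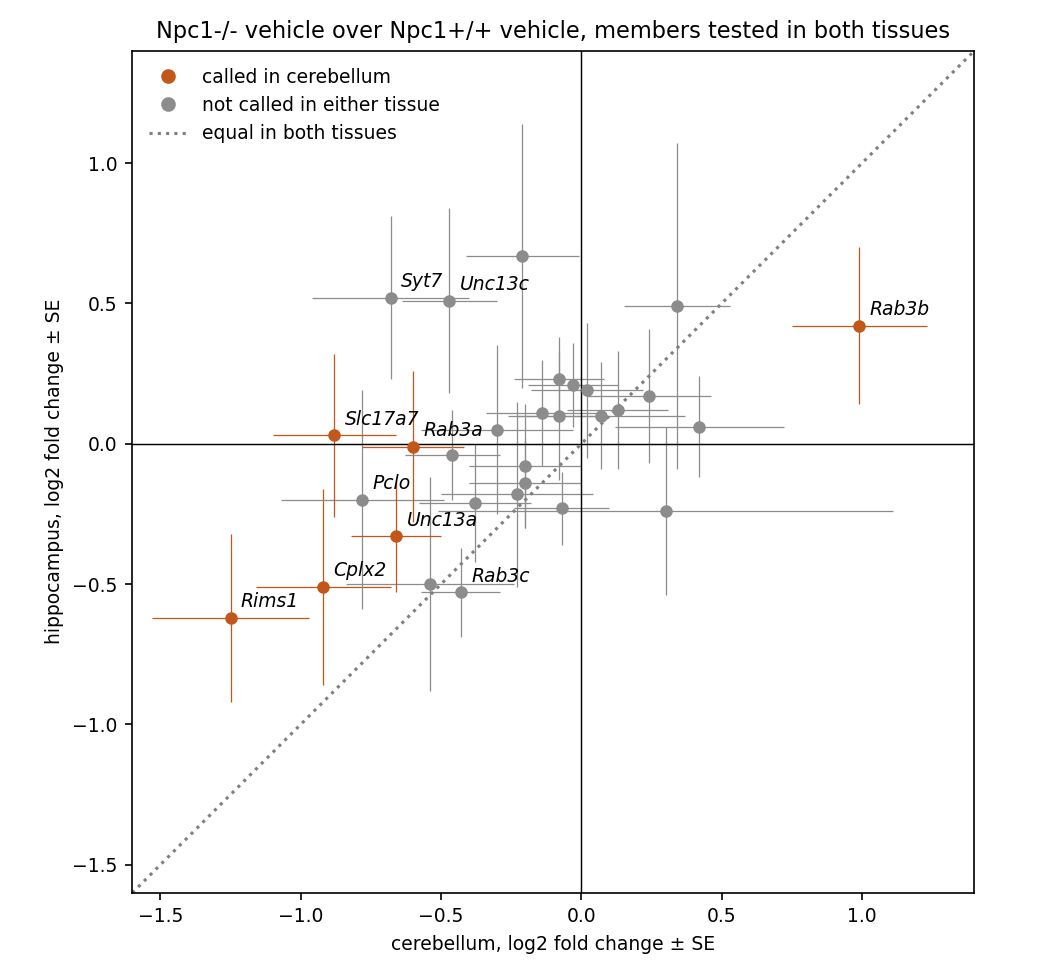
Log2 fold change with SE of Npc1-/- vehicle over Npc1+/+ vehicle mice in cerebellum (horizontal) and hippocampus (vertical) for the 30 members tested in both, with the 6 members called in cerebellum in colour and a dotted line where both would be equal. Rims1, Cplx2, Unc13a and Rab3b lie on the same side of 0 in both tissues, and Syt7, at -0.68 and 0.52, lies on opposite sides.

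More members differed between the tissues than between the groups. In Npc1+/+ vehicle mice 21 of 31 members (67.7%) differed between cerebellum and hippocampus, against 43.1% of 13436 genes. Of the 31, 8 were higher in cerebellum, against 21.3% of all genes, and 13 were lower (41.9%), against 21.8%. Of the 21 called, 19 had the same direction in all 12 mice. The other 2, Sv2a and Syt11, did so in all 4 Npc1+/+ mice. The members were chosen by a call in the Npc1+/+ mice, so agreement among those 4 mice was largely fixed in advance. The direction in mice of the other groups was not fixed by that choice. The share of all called genes with the same direction in all 12 mice was not counted, so the 19 have no background. The levels in the next paragraphs are of Npc1+/+ vehicle mice and are scaled over all 24 libraries.

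Several gene families split between the tissues. Of the fast calcium sensors, Syt2 had 385, 345, 281.5 and 291 CPM in cerebellum and 16.0, 16.8, 24.6 and 18.9 CPM in hippocampus, at 4.10 ± 0.23 log2 (17.2-fold, adjusted p = 2.31e-10 by edgeR's quasi-likelihood test). Syt1 had 255, 303, 347 and 328 CPM in cerebellum and 1058, 819.8, 1085 and 906 CPM in hippocampus, at -1.65 ± 0.12 (adjusted p = 5.37e-09). Neither gene overlapped between the tissues, and they lay on opposite sides. Syt5, a further synaptotagmin, had 12.9, 18.2, 10.1 and 19.8 CPM in cerebellum and 135, 137.0, 162 and 137.1 CPM in hippocampus, at -3.25 ± 0.18 (adjusted p = 1.23e-10).

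The glutamate transporters split the same way. Slc17a6 (VGLUT2) had 70.2, 88.7, 65.3 and 76.1 CPM in cerebellum and 16.7, 20.5, 25.1 and 26.9 CPM in hippocampus, at 1.77 ± 0.25 log2 (adjusted p = 2.86e-05 by edgeR's quasi-likelihood test). Slc17a7 (VGLUT1) had 706, 837, 895 and 1032 CPM in cerebellum and 4055, 2635, 2787 and 2051 CPM in hippocampus, at -1.70 ± 0.19 (adjusted p = 1.03e-06). In each mouse VGLUT2 was higher and VGLUT1 lower in cerebellum.

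At the active zone, Unc13c had 164, 181, 149 and 176 CPM in cerebellum and 20.2, 14.4, 14.8 and 16.0 CPM in hippocampus, a 10.3-fold difference (3.36 ± 0.20 log2, adjusted p = 3.44e-10 by edgeR's quasi-likelihood test), whereas Unc13a was lower in cerebellum (-0.92 ± 0.13, adjusted p = 2.31e-05). The Munc13 genes thus lay on opposite sides as well. Rims2 had 137, 162, 185 and 186 CPM in cerebellum and 117, 78.7, 94.3 and 86.5 CPM in hippocampus, at 0.84 ± 0.15 (adjusted p = 1.92e-04), and Rims1 did not pass (0.02 ± 0.15, adjusted p = 0.926). Bsn was lower at -0.46 ± 0.12 and Pclo was not called (0.39 ± 0.24, adjusted p = 0.213).

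Of the vesicle SNAREs, Vamp1 had 637, 682, 923 and 975.2 CPM in cerebellum and 319, 220.4, 242 and 251 CPM in hippocampus, at 1.63 ± 0.18 log2 (adjusted p = 1.22e-06 by edgeR's quasi-likelihood test), and Vamp2 was lower in cerebellum (-0.56 ± 0.11). Vamp1 did not overlap between the tissues. Sv2c had 125, 139, 93.4 and 106 CPM in cerebellum and 22.05, 20.2, 18.9 and 17.5 CPM in hippocampus, at 2.55 ± 0.16 (adjusted p = 8.91e-10), against a small difference for Sv2a (0.34 ± 0.11) and a lower Sv2b (-0.84 ± 0.15).

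Rab3b had 21.4, 22.9, 11.3 and 19.9 CPM in cerebellum and 56.9, 58.7, 57.5 and 55.3 CPM in hippocampus. The difference was -1.63 ± 0.18 log2 (adjusted p = 7.88e-07 by edgeR's quasi-likelihood test). The member called higher in Npc1-/- cerebellum was thus lower in cerebellum than in hippocampus of Npc1+/+ mice. Both comparisons use the same Npc1+/+ cerebellar libraries, so they are not independent. Syn1, a synapsin that tethers vesicles to actin, had 139, 203, 183 and 234 CPM in cerebellum and 619.9, 322, 517 and 275 CPM in hippocampus, at -1.14 ± 0.22 (adjusted p = 5.97e-04). Replicate 1 set the widest difference and replicate 4 the narrowest. The remaining called members, Cplx1, Syngr3, Syp and Syt11, stood at 0.60 ± 0.12, -0.80 ± 0.15, -0.78 ± 0.17 and -0.33 ± 0.11 log2.

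**Figure D4:**
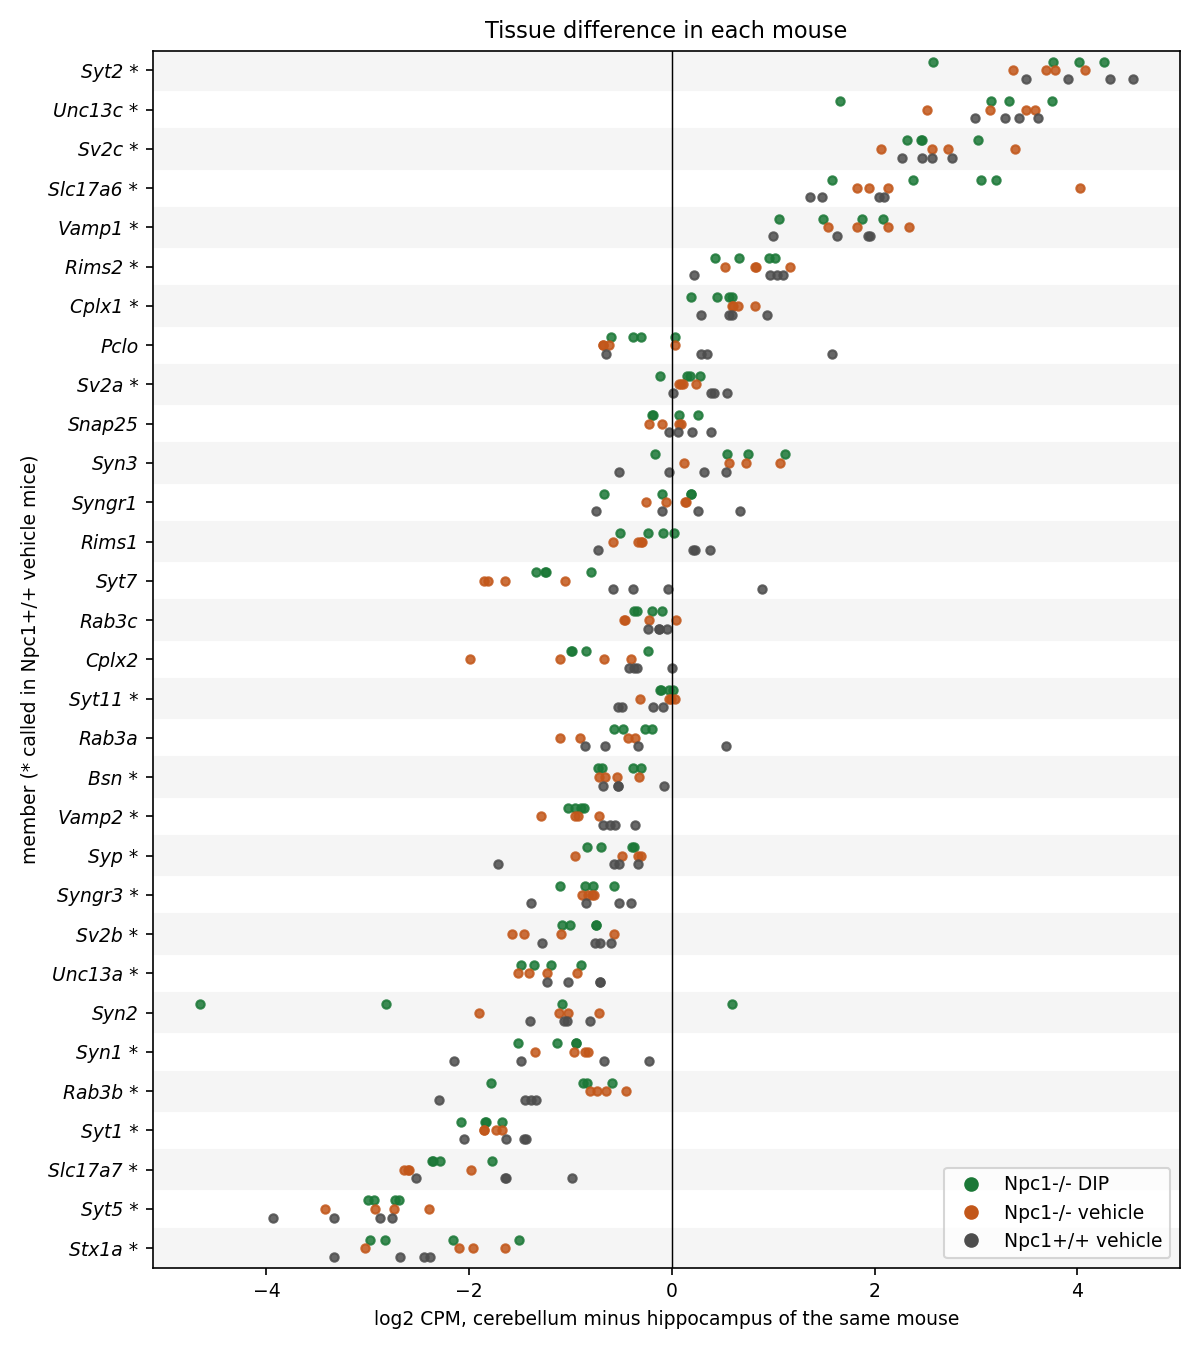
Log2 CPM in cerebellum minus hippocampus of the same mouse for 31 members, 1 point per mouse coloured by group and ordered by the difference fitted in Npc1+/+ vehicle mice, from Syt2 at 4.10 to Stx1a at -4.44. Points of 7 called members lie right of 0 and of 12 called members left of 0 in all 12 mice. Syn2 in Npc1-/- DIP mice has the widest scatter. Points use log2(CPM + 0.5), so those of the barely counted Stx1a run from -3.33 to -1.51, nearer 0 than its fitted difference.

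Stx1a, the syntaxin of the classical SNARE bundle, was barely counted in cerebellum, where the 4 libraries of a group summed to 22 counts in Npc1-/- DIP, 11 in Npc1-/- vehicle and 6 in Npc1+/+ vehicle mice. In hippocampus they summed to 189, 79 and 128 counts in the same order. Relative to the summed library totals without TMM scaling, the Npc1+/+ sums were 0.165 CPM (exact Poisson 95% interval 0.061 to 0.359) in cerebellum and 3.71 CPM (3.09 to 4.41) in hippocampus. The fitted tissue difference was -4.44 ± 0.47 log2 (adjusted p = 5.54e-07 by edgeR's quasi-likelihood test), and Stx1a entered no group test in cerebellum. Slc32a1, the GABA and glycine transporter, had 4 counts in all 24 libraries and entered no test. In Npc1+/+ vehicle cerebellum it had 0 counts, for which the exact Poisson 95% interval used for Stx1a reaches 0.101 CPM. A simpler floor of 3 counts over the 36356002 counts of the group is 0.083 CPM. Such intervals and limits cover counting error only. Gad1 and Gad2, which make GABA, were present in the same libraries at 667 ± 75.0 and 183 ± 20.6 CPM in Npc1+/+ vehicle cerebellum (SD, n = 4), so an inhibitory cell type was counted while Slc32a1 was not. The panel reads a single short amplicon for a gene, so levels were not compared between genes.

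Libraries of a group differed among themselves in a shared way. Replicate 2 of the Npc1-/- vehicle group had the highest Rims1, Syp and Syn1 of its group in both tissues and the lowest Pclo and Syt7. In cerebellum its Syp was 3043 CPM against 1294 to 1920 CPM in the other 3, and in hippocampus 3934 CPM against 1519 to 2270 CPM. Its GC slopes, 0.132 and 0.119 log2 per 10 points, were the highest of all libraries in cerebellum and hippocampus, and the part of GC content in this pattern was not tested. Within the Npc1+/+ hippocampus, replicate 1 had the highest Syp and Syn1, the lowest Pclo and Syt7 and the highest GC slope of its group, 0.042 against -0.131 to -0.064 in the others.

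Syn2, a synapsin that was named after its values were seen, scattered widely among the treated mice. It had 23.3, 312, 96.6 and 365 CPM in Npc1-/- DIP, 303, 165, 351 and 336 CPM in Npc1-/- vehicle and 267, 310.2, 310.1 and 283 CPM in Npc1+/+ vehicle cerebellum. In hippocampus replicate 4 of the Npc1-/- DIP mice held 222 CPM, against 555 to 623 CPM in the other 3. The treated cerebella thus spread from far below to just above the other groups, and dipyridamole against vehicle gave -0.66 ± 0.66 log2 (adjusted p = 1). Its exons share 90 bases, 1.3%, with Timp4 on the other strand.

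**Figure D5:**
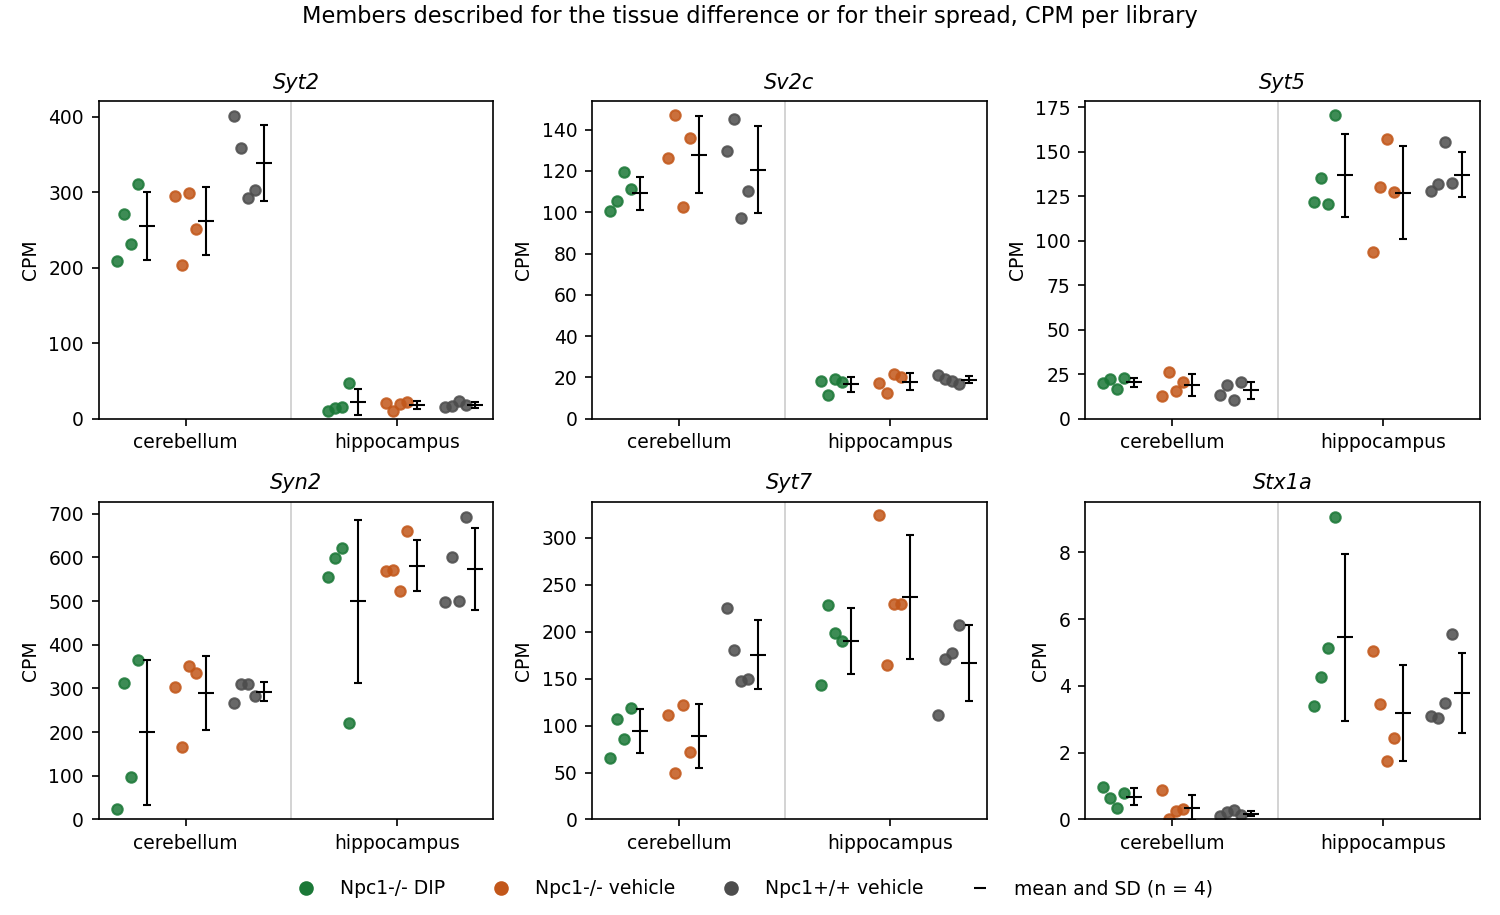
CPM of 6 members by tissue and group, with 1 point for each library and a bar for the mean and SD of 4 libraries, on linear axes that start at 0. Syt2 and Sv2c are high in cerebellum and Syt5 and Stx1a in hippocampus, Syn2 scatters from 23.3 to 365 CPM in Npc1-/- DIP cerebellum, and the Npc1-/- points of Syt7 lie below its Npc1+/+ points in cerebellum and overlap them in hippocampus.

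Other genes of vesicle release, 85 in 5 lists of regulators, sensors, active zone, membrane and recycling genes, were read beside the members. In cerebellum 81 were tested, of which 3 were higher and 6 lower in Npc1-/- vehicle mice, against 5.91% and 4.04% of all genes, with a median of -0.13 log2. In Npc1-/- DIP mice 6 of 81 were higher and 5 lower, against 8.13% and 6.29% of all genes, with a median of -0.11, and both comparisons were with Npc1+/+ vehicle mice. The treated counts were thus close to the background. Doc2b, a high-affinity sensor for spontaneous release, was lower at -2.51 ± 0.32 log2 in vehicle mice (adjusted p = 4.13e-05 by edgeR's quasi-likelihood test) and -2.21 ± 0.28 in treated mice, while its relative Doc2a was higher at 0.99 ± 0.25 and 1.19 ± 0.23. Cadps2, which primes dense-core vesicles, was lower at -1.11 ± 0.21 and -0.92 ± 0.18, Sh3gl2, the endophilin that reshapes membrane in recycling, at -0.69 ± 0.18 and -0.64 ± 0.16, and Stxbp5l, the SNARE inhibitor tomosyn-2, at -0.67 ± 0.20 and -0.55 ± 0.17 in vehicle and treated mice. Ppfia2, a liprin of the active zone, and Slc6a17, a vesicular amino acid transporter, were called lower in vehicle mice alone (-0.68 ± 0.18 and -0.85 ± 0.21), and Syt9 in treated mice alone (-0.65 ± 0.16).

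The transporters of monoamines and acetylcholine went the other way. Slc18a2 (VMAT2) was higher at 1.97 ± 0.35 log2 in vehicle mice (adjusted p = 0.00132 by edgeR's quasi-likelihood test) and 1.09 ± 0.32 in treated mice, and Slc18a3 (VAChT) at 1.26 ± 0.31 and 1.19 ± 0.27. Of 7 brainstem markers, 3 were tested in cerebellum and 2 were called higher in both comparisons, Th at 1.69 ± 0.35 and 1.87 ± 0.32 and Chat at 1.15 ± 0.34 and 1.06 ± 0.29 in vehicle and treated mice, and their part in the result was not tested. Cplx3, Rimbp2 and Synpr were called higher in treated mice alone, at 1.53 ± 0.35, 0.64 ± 0.18 and 0.55 ± 0.15. In hippocampus 80 were tested and none was called in vehicle mice, while Slc30a3, the vesicular zinc transporter ZnT3, was higher in treated mice at 0.61 ± 0.15 (adjusted p = 0.0401). Dipyridamole against vehicle called 0 of 81 in cerebellum and 0 of 80 in hippocampus. Between tissues of Npc1+/+ mice 17 of 82 were higher in cerebellum, against 21.3% of all genes, and 34 were lower, against 21.8%. The synaptotagmins Syt9 (3.56 ± 0.36 log2) and Syt12 (1.48 ± 0.12), the active zone genes Lin7a (2.12 ± 0.15) and Erc1 (1.68 ± 0.16) and Slc18a3 (5.24 ± 0.47) were among the higher. Syt17 (-8.47 ± 0.37), a further synaptotagmin, had the widest difference among those named here, and Syt16 (-2.98 ± 0.17), Rimbp2 (-2.95 ± 0.15), Slc30a3 (-3.14 ± 0.17) and Cplx3 (-3.23 ± 0.44) were also among the lower.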

How the data were processed

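Libraries were made with the Ion AmpliSeq mouse panel, per the labels' protocols, so a gene is read through a short amplicon. The authors deposited raw counts per gene for each of 24 libraries. The submitters' processing notes name FastQC 0.11.9, Trimmomatic 0.39, STAR 2.7.9a, featureCounts 2.0.3, GRCm39 and GENCODE vM34. Per the file headers, featureCounts was run without strand.

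From the counts, edgeR 4.0.16 (R 4.3.3) fitted quasi-likelihood models with TMM scaling and filterByExpr, for each tissue over 12 libraries with sex as a covariate, and over 24 libraries with the mouse as a block and terms for tissue by group and tissue by sex. P-values were adjusted by Benjamini-Hochberg over all genes tested, and 0.05 was the threshold. CPM values were computed here, and differences by mouse used log2(CPM + 0.5). DESeq2 1.42.0 was an alternative. IDs without a symbol held 0.21% of the counts.

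Members and gene lists were chosen with earlier results of these data known. Values of every library are given for members called in a group comparison and, between tissues, for the 6 highest and 6 lowest called. Other genes of the pathway are named up to 4 for each list, by smallest p. Syt7, Syp, Syn2, Syn3 and the low-count members were singled out after their values were seen. Tissues were paired by the labels' animal numbers, and deviations of the 2 tissues of a mouse correlated at -0.577 to 0.63. Replicate numbers do not pair mice across groups. Replicates are separate mice, and no 2 replicates of a group agreed within sampling noise. The scripts were tested on simulated data.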

Additional observations from a re-analysis of the deposited data

Results flagged for a closer look

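Of 192 groups of 4 libraries checked, 13 held a library far from the other 3, and chance gives about 1 in 20. Syn2, among the 13, was singled out after its values were seen, so the count and that rate are not strictly comparable. Rims1 was high in replicate 2 of the Npc1-/- vehicle group in both tissues, at 95.86 CPM against 41.32 to 49.91 CPM in cerebellum and 108.97 CPM against 47.03 to 57.12 CPM in hippocampus. In Npc1-/- DIP hippocampus, replicate 4 stood apart in Syt2 (47.51 CPM against 9.55 to 15.16 CPM), Unc13c (31.37 CPM against 8.48 to 11.34 CPM) and Syn2 (221.82 CPM against 554.69 to 622.53 CPM). Syt2 and Unc13c were high and Syn2 was low there, in the library with the lowest principal neuron marker sum of its group, whose part was not tested. In the same group Sv2c was low in replicate 2 (11.31 CPM against 17.98 to 19.34 CPM) and Syt1 was high in replicate 1 (987.05 CPM against 831.49 to 847.29 CPM). In Npc1+/+ vehicle hippocampus, Stx1a was high in replicate 4 (5.55 CPM against 3.05 to 3.48 CPM) and Syt5 in replicate 3 (155.79 CPM against 128.06 to 132.66 CPM).

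Beside the members, the total of Npc1-/- DIP cerebellum replicate 2 was 6117929 counts, against 8418158 to 8810041 counts in the other 3. Choroid plexus markers summed to 4856.74 CPM in Npc1-/- DIP hippocampus replicate 1, against 94.37 to 369.89 CPM, and they also spread widely in the hippocampus of Npc1-/- vehicle mice (155.0 to 7773 CPM) and Npc1+/+ vehicle mice (77.8 to 3339 CPM). Thalamus and habenula markers summed to 690.04 CPM in Npc1-/- vehicle cerebellum replicate 1, against 519.14 to 541.79 CPM, and principal neuron markers to 105.93 CPM in Npc1+/+ vehicle cerebellum replicate 2, against 112.92 to 114.35 CPM.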

How the results depend on the processing

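Of the members called in a cerebellar group comparison and the 12 named between tissues, none changed direction in that comparison under a setting run, and the direction of other members was not followed. Members called in Npc1-/- vehicle against Npc1+/+ vehicle cerebellum numbered 6, against 10 without the sex term, 2 with a replicate block, 0 with only those groups fitted, 2 in female mice alone, 13 with a GC slope covariate, a setting added after seeing the data, and 1 to 9 when 1 library was left out. For Npc1-/- DIP against Npc1+/+ vehicle cerebellum the count was 7, against 3 with a replicate block, 11 with the GC slope and 0 to 8 when 1 library was left out. In hippocampus both counts of 0 became 1 with DESeq2 (Rab3c) and 1 with the GC slope, Syt7 in vehicle mice and Rims1 in treated mice. For genotype effects compared between tissues, the count of 0 became 1 (Syt7) with DESeq2, without the low-count filter and without the tissue by sex term. It ran from 0 to 3 when both libraries of 1 mouse were left out. Without replicate 1 of the Npc1+/+ group the fit called Rims1, Slc17a7 and Syt7. The tissue count of 21 stayed at 20 or 21 when both libraries of 1 mouse were left out. It was 21 without the mouse as a block. The cause was not tested. Over all genes, the Npc1-/- vehicle count in cerebellum was 1286, against 2249 without the sex term and 613 with the replicate block. It was 2314 with the GC slope and 474 to 1866 when 1 library was left out. For Npc1-/- DIP cerebellum, leaving out 1 library gave 858 to 1803 calls over all genes, against 1864. Same-numbered mice of different groups correlated at -0.556 to 0.64, a range like that of the 2 tissues of a mouse (-0.577 to 0.63). These correlations therefore cannot decide whether the numbers pair mice across groups, and the labels do not pair them. Counts were too few to test Stx1a in cerebellum and Slc32a1 in both tissues.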
